A study of Homo sapiens with 22 samples.

Results

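The genes described here are 33 that make cholesterol, sense it, take it out of lysosomes, store it as ester or export it from the cell. They were matched by symbol, current or older, to the annotated probes of an Illumina HumanRef-8 v3 bead array. No measured value entered that rule, but the list was drawn up with earlier results of these data known. Of the 33 genes, 29 had at least 1 annotated probe, 39 probes in all. No probe was annotated to FDFT1, FDPS, HSD17B7 or NR1H2, and the probe of STARD4 was too dim to be tested, which left 28 genes among the 13870 genes tested. Of these 28, 22 were above background on every array.

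RNA was collected from 3 liver cancer lines of human origin, which are Huh7, HepG2 and Hep3B, 48 h after transfection with 15 nM siRNA. In each line, cells given COP1 siRNA were compared with cells given a negative control siRNA, so the control cells were transfected too, and all cells grew in DMEM/F-12 with fetal bovine serum. Each siRNA was measured on 3 arrays in Huh7 and on 4 in each of the other lines. COP1 is a ubiquitin ligase that marks transcription factors and other proteins for degradation. The design names 1 COP1 siRNA, and nothing says that replicates were separate cultures, so p-values measure the spread between these arrays, which may be technical.

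Cells make cholesterol from acetyl-CoA by way of mevalonate, squalene and lanosterol. When sterols in the endoplasmic reticulum are scarce, SCAP carries the SREBP transcription factors to the Golgi, where proteases release the part that enters the nucleus and turns on the genes of this pathway. When sterols are plentiful, INSIG proteins hold SCAP back, and oxysterols activate the LXR receptors, which turn on exporters such as ABCA1. Cholesterol taken up in lipoproteins is freed in the lysosome and leaves it through NPC2 and NPC1.

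The promoters of 5 of these genes are shown because the COP1 siRNA results below turn on them. LSS and NPC1 changed in all 3 lines, while the largest falls were those of MVD in Huh7, INSIG2 in HepG2 and MVK on the arrays labelled Hep3B. Each stretch runs 5′ to 3′ on the gene's strand over 300 bases of RefSeq sequence (GRCh38.p14), 250 before the annotated start and 50 after it. Capitals mark the core of a sterol regulatory element, CACNCCA, and the NF-Y box, CCAAT, on either strand. The windows are chr21:46228725-46229024 (minus strand) for LSS, chr18:23586457-23586756 (minus strand) for NPC1, chr16:88663042-88663341 (minus strand) for MVD, chr12:109573544-109573843 (plus strand) for MVK and chr2:118088221-118088520 (plus strand) for INSIG2.
LSS: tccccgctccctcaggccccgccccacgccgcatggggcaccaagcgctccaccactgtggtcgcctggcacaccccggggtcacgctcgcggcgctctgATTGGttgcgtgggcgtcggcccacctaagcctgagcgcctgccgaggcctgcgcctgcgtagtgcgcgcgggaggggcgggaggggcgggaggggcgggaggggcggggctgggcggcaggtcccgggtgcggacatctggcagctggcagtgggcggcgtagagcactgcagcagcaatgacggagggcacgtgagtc
NPC1: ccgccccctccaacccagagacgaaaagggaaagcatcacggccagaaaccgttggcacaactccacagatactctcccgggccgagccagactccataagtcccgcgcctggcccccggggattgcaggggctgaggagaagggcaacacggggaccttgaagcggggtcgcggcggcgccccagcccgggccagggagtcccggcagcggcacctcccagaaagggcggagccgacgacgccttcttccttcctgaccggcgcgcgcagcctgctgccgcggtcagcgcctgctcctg
MVD: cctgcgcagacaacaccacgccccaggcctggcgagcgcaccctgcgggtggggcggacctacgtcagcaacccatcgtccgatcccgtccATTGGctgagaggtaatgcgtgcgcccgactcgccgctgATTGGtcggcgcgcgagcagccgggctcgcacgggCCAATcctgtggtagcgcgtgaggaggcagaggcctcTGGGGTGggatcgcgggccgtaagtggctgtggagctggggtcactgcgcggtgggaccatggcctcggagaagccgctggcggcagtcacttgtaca
MVK: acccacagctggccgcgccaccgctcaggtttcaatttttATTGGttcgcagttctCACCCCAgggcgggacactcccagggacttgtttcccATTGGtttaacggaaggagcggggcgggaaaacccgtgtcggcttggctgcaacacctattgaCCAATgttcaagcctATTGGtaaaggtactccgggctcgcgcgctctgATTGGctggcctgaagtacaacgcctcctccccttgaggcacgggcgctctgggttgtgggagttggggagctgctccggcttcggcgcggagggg
INSIG2: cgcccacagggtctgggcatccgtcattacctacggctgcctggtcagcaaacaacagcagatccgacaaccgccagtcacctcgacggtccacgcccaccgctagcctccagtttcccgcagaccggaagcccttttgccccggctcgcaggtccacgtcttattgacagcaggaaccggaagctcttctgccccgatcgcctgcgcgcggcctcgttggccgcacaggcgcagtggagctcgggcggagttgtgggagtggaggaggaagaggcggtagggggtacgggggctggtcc
MVD holds the sterol regulatory element core at position -48 from the start, with 3 NF-Y boxes. MVK holds the core at position -194, with 5 NF-Y boxes. LSS holds no core and 1 NF-Y box, at position -150. The windows of NPC1 and INSIG2 hold neither of the 2 motifs. Of the 33 genes, 28 had a promoter in the RefSeq table, and the core was in 10 of these 28, against 17.4% of all 27305 promoters. The NF-Y box was in 17 of the 28, against 35.7% of all promoters. The ends of the 2 motifs can share letters, which they do in 0 of the 5 windows shown, and a match is not a measured binding site.

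Before the results, 2 facts about the arrays matter. Most hepatocyte markers were missing from the arrays labelled Hep3B: of 10 hepatocyte markers, ALB, APOA2, APOH, FGB, TF, RBP4 and FOXA3 were above background on 0 of the 8 arrays. AFP, the fetal albumin that liver cancer cells often make, averaged 131.6 in COP1 siRNA cells and 100.4 in control cells there, against 15980 and 14130 in the same groups of Huh7. These cells are therefore called Hep3B-labelled below. The other fact is that replicate 3 of the Huh7 COP1 siRNA group stood apart: the root mean square of its log2 deviations from the group mean was 0.418, against 0.12 to 0.274 for the other 21 arrays. COP1 itself fell in every line, with a log2 fold change of -2.40 ± 0.12 in Huh7 (SE, n = 3 each). The value was -1.78 ± 0.11 in HepG2 (n = 4 each), and -2.05 ± 0.11 in the Hep3B-labelled cells (n = 4 each). Of 10 markers of fibroblasts, endothelium and leukocytes, PTPRC and VWF were above background on 0 arrays. The summed intensity of the 10 was 410.69 to 752.82 in Huh7 COP1 siRNA cells and 1762.7 to 2021.4 in Huh7 control cells, most of it CD14, which averaged 386.8 in COP1 siRNA cells and 1737 in control cells. Other members of that list ran the other way in Huh7: PECAM1 rose, at 91.0 with COP1 siRNA and 53.1 with control siRNA (adjusted p = 0.045), and COL3A1, LUM and DCN had higher means with COP1 siRNA. The number of these 10 markers above background on no array was 2 in Huh7 COP1 siRNA cells and 7 in Huh7 control cells. What part this has in the Huh7 results was not tested. In HepG2 the sum was 355.81 to 434.3 after COP1 siRNA and 203.07 to 293.98 after control siRNA, and in the Hep3B-labelled cells 150.54 to 218.84 with COP1 siRNA and 169.34 to 277.53 with control siRNA.

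With COP1 siRNA, some cholesterol genes rose and others fell in every line. NPC1, the lysosomal cholesterol exporter, rose in all 3 lines, and LSS, the cyclase that makes lanosterol, fell in all 3. Huh7 had 4 of the 28 genes higher and 7 lower, 39.3% of them, where 32.2% of all genes tested changed (17.0% rose and 15.2% fell). HepG2 had 2 higher and 5 lower, 25% against a background of 18.6% (9.06% rose and 9.52% fell). The Hep3B-labelled cells had 2 higher and 3 lower, 17.9% against a background of 16.3% (8.44% rose and 7.88% fell).

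The median log2 fold change of the 28 genes was -0.01 in Huh7, 0.06 in HepG2 and -0.10 in the Hep3B-labelled cells, beside 0.01, 0.02 and -0.01 over all genes tested. A gene counts as changed when its adjusted p in limma is under 0.05 over all 13870 genes, and a gene that rose or fell is one that passed. Because 50 was added to the background-corrected intensity before log2 was taken, fold changes of dim genes are understated. In a lysate of many cells, fewer cells of a kind and less RNA per cell cannot be told apart. Over the 3 lines, 16 of the 28 genes changed at least once, 11 of them in 1 line, 3 in 2 lines and 2 in all 3 lines. In this shared fit of all lines, 0 changed in opposite directions. A rise in all 3 lines was seen in 0.267% of all genes and a fall in all 3 in 1.85%. Arrays that do not overlap between the groups of a line, cited below for single genes, were common. They were seen, in either direction, for 33.5% of all genes in Huh7, 25.0% in HepG2 and 28.3% in the Hep3B-labelled cells.

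**Figure D1:**
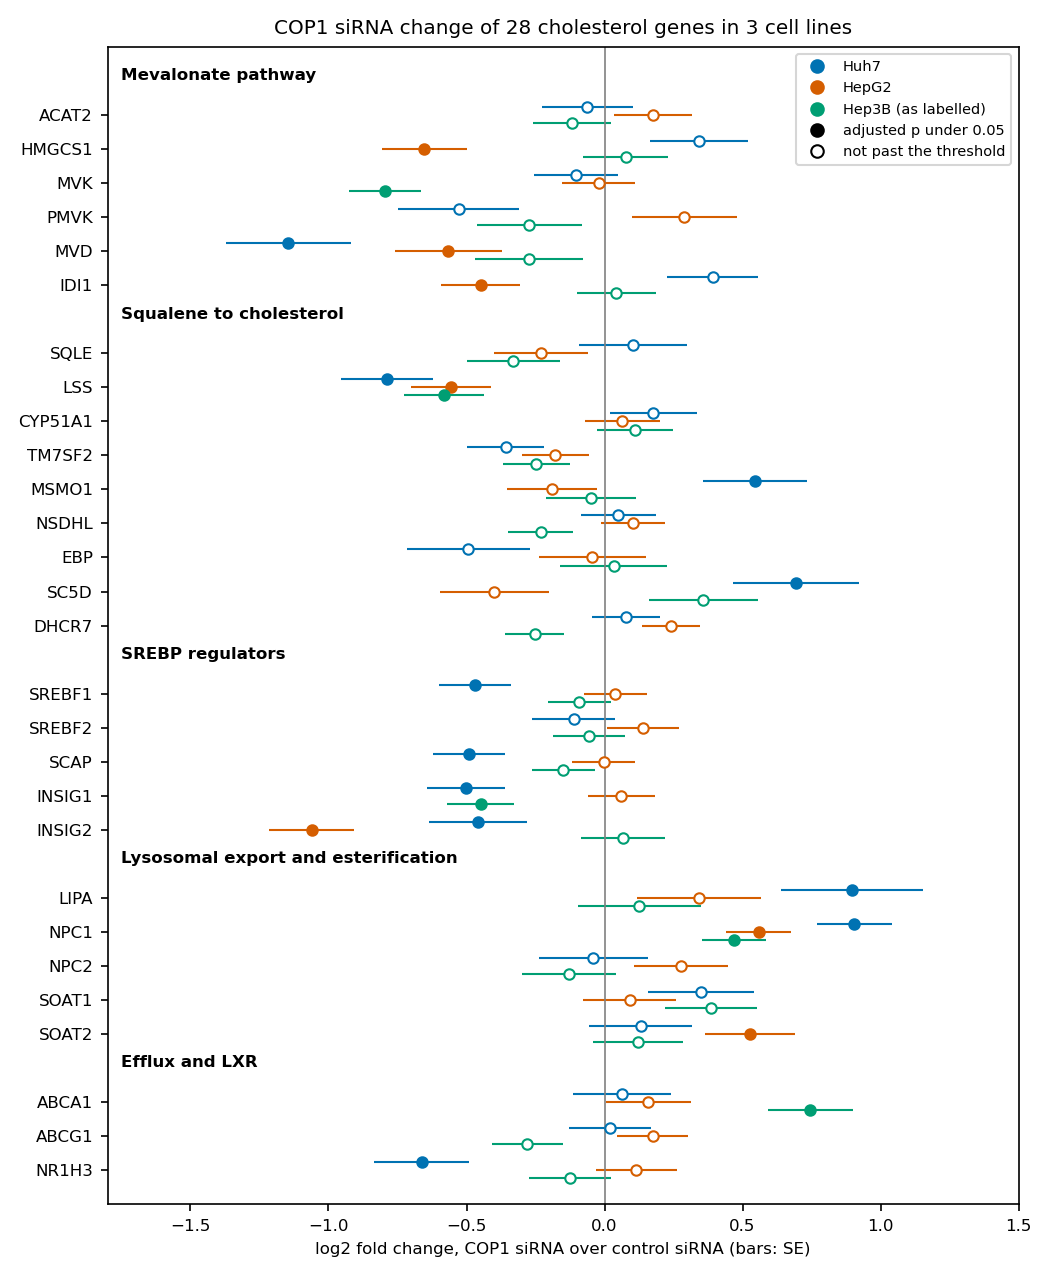
Change of 28 cholesterol genes, ordered by role, in the 3 cell lines. The x axis is the log2 fold change of COP1 siRNA over control siRNA, points are limma estimates, bars are standard errors, and filled points have an adjusted p under 0.05. NPC1 lies right of 0 and LSS left of 0 in all 3 lines, while 11 genes have a filled point in 1 line. INSIG1 in HepG2 was at background.

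The Huh7 counts depend on single arrays. Without COP1 siRNA replicate 3, 1 gene rose and 7 fell, and 28.9% of all genes changed. Without control siRNA replicate 3, the count that rose was also 1. When Huh7 was fitted alone, 1 gene rose (NPC1, adjusted p = 0.016) and 1 fell (LSS, adjusted p = 0.043), where 9.39% of all genes changed. In HepG2, the number that rose was 1 without COP1 siRNA replicate 2 or without control siRNA replicate 3. The number that fell in HepG2 was 3 without any 1 of 5 arrays, COP1 siRNA replicates 1 and 3 and control siRNA replicates 1, 2 and 4. In the Hep3B-labelled cells, 4 genes rose when replicate 3 of the Huh7 COP1 siRNA group was left out of the shared fit. With those cells fitted alone, 4 rose and 6 fell, 35.7% of the 28, where 28.3% of all genes changed. The calls gained there were SQLE, PMVK and ABCG1 lower and SC5D and SOAT1 higher, and HepG2 fitted alone gained SC5D lower. With each line fitted alone in limma, SC5D thus changed in opposite directions. Its log2 fold change was -0.40 in HepG2 (adjusted p = 0.02) and 0.36 in the Hep3B-labelled cells (adjusted p = 0.013).

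Across the 28 genes, Huh7 COP1 siRNA replicate 3 was the highest of the 6 Huh7 arrays for 10 genes and the lowest for 11. The 10 were HMGCS1, SQLE, IDI1, SC5D, CYP51A1, MSMO1, NPC1, SOAT1, LIPA and ABCA1. The 11 were LSS, MVK, PMVK, MVD, NSDHL, EBP, SCAP, SREBF2, NPC2, SOAT2 and NR1H3. Control siRNA replicate 3 lay at an extreme for 17 of the 28 genes, as the highest of the 6 arrays for 9 and the lowest for 8. The share of all genes tested at such an extreme was not counted, so these counts do not set the 28 apart from other genes. SQLE, the epoxidase that feeds LSS, had 2484, 2698 and 6016 in Huh7 COP1 siRNA cells and 3557, 3194 and 2865 in control cells. Its first 2 COP1 siRNA arrays were below all controls and replicate 3 was far above them. EBP, a sterol isomerase, had 5229, 5256 and 1993 with COP1 siRNA against 5132, 5114 and 5972 with control siRNA. Its first 2 COP1 siRNA arrays lay among the controls and replicate 3 far below. What set that array apart was not tested.

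**Figure D2:**
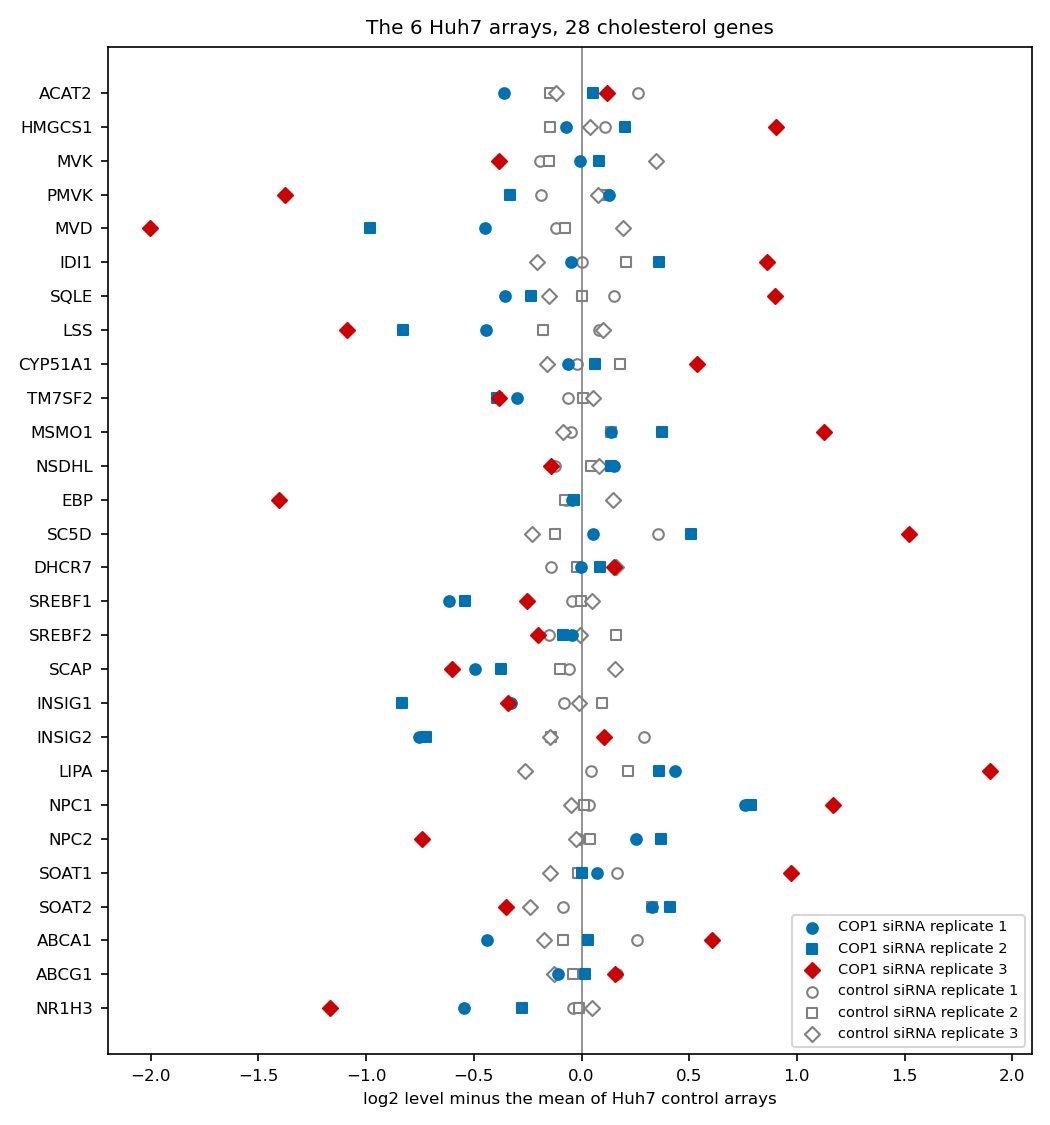
The 6 Huh7 arrays for each of the 28 genes. The x axis is the log2 level on each array minus the mean of the 3 control arrays, with filled symbols for COP1 siRNA (replicate 3 in red) and open symbols for control siRNA. Replicate 3 of COP1 siRNA is the highest array for 10 genes and the lowest for 11, whereas all 3 COP1 siRNA arrays lie right of the controls for NPC1 and left of them for LSS.

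Among the 6 measured genes of the mevalonate pathway, the early part that turns acetyl-CoA into activated isoprene units, 0 rose in any line by the adjusted limma test. At an unadjusted p under 0.05, 1 was higher in Huh7 and 0 in the other lines. The share of all genes at that unadjusted p was not counted. The 1 that fell in Huh7 was MVD, and the 3 in HepG2 were HMGCS1, MVD and IDI1. In the Hep3B-labelled cells the 1 that fell was MVK. Over all genes, 15.2% fell and 17.0% rose in Huh7, and 9.52% fell and 9.06% rose in HepG2. In the Hep3B-labelled cells 7.88% fell and 8.44% rose. MVD, the decarboxylase that ends this stretch (chromosome 16, 88651940 to 88663091 in GRCh38.p14), had deposited intensities of 463, 297 and 108 in Huh7 COP1 siRNA cells, against 601, 622 and 765 in control cells. All 3 COP1 siRNA arrays lay below all controls, with replicate 3 the lowest. This gave a log2 fold change of -1.15 ± 0.23 (SE, n = 3 each, adjusted p = 0.00032), and -0.72 without replicate 3 (adjusted p = 0.00067). Fitted in Huh7 alone, the adjusted p was 0.073.

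In HepG2, MVD had 557, 764, 583 and 548 after COP1 siRNA and 1004, 850, 916 and 978 after control siRNA. The groups did not overlap, and the fall of -0.57 ± 0.20 on the log2 scale (n = 4 each, adjusted p = 0.043) was just inside the threshold. Of the 8 HepG2 arrays, leaving out any 1 except COP1 siRNA replicate 2 ended the call, with an adjusted p of up to 0.10. In the Hep3B-labelled cells MVD was dim, at 53.3, 25.8, 53.3 and 21.6 after COP1 siRNA and 62.1, 61.1, 55.2 and 65.8 after control siRNA (-0.27 ± 0.20, adjusted p = 0.42). The fall of MVD in Huh7 was the largest among the 28 genes there, and what part its promoter motifs have in it was not tested.

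HMGCS1, the cytosolic synthase that makes HMG-CoA (chromosome 5, 43287470 to 43313412), had 3142, 3850, 2731 and 3282 in HepG2 after COP1 siRNA and 5700, 4544, 4592 and 5755 after control siRNA. Every COP1 siRNA array was below every control. In log2 terms HMGCS1 changed by -0.65 ± 0.15 there (adjusted p = 0.0032), and the call held without each HepG2 array in turn, with adjusted p between 0.0026 and 0.018. In Huh7, HMGCS1 had 9120, 11019 and 17979 after COP1 siRNA against 10336, 8654 and 9848 after control siRNA, so the arrays overlapped (0.34 ± 0.18, adjusted p = 0.15). That value was 0.06 without COP1 siRNA replicate 3 and 0.55 without replicate 1 (adjusted p = 0.015). The Hep3B-labelled cells had 1623, 2071, 1982 and 1878 with COP1 siRNA against 1893, 1808, 1541 and 1898 with control siRNA (0.08 ± 0.15, adjusted p = 0.83). The change in HepG2 was below that in Huh7 by a log2 difference of -0.996 ± 0.235 (adjusted p = 0.0028), and the Hep3B-labelled change was above that in HepG2 by 0.73 ± 0.22 (adjusted p = 0.019).

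IDI1, which isomerizes isopentenyl diphosphate, fell in HepG2 by 0.45 on the log2 scale (SE 0.14, adjusted p = 0.027). The call was lost without any 1 of 5 HepG2 arrays, COP1 siRNA replicates 1 and 3 and control siRNA replicates 1, 2 and 4, with an adjusted p of up to 0.083. In Huh7 its log2 fold change was 0.39 ± 0.16 (adjusted p = 0.071). That value was 0.16 without COP1 siRNA replicate 3, 0.61 without replicate 1 (adjusted p = 0.0032) and 0.50 without control siRNA replicate 2 (adjusted p = 0.046). The change in HepG2 was below that in Huh7 by -0.84 ± 0.22 (adjusted p = 0.0058).

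MVK, mevalonate kinase (chromosome 12, 109573272 to 109598125), showed the largest change of the 28 genes in the Hep3B-labelled cells. It had 69.2, 97.2, 100 and 62.5 after COP1 siRNA and 197, 202, 197 and 192 after control siRNA. The control arrays were nearly level, and all COP1 siRNA arrays were below them. The log2 fold change was -0.80 ± 0.13 (n = 4 and 4, adjusted p = 9.5e-05). In HepG2, MVK had 274, 377, 362 and 314 with COP1 siRNA against 281, 359, 335 and 374 with control siRNA (-0.02 ± 0.13, adjusted p = 0.94), and in Huh7 207, 224 and 142 with COP1 siRNA against 172, 180 and 284 with control siRNA (-0.10 ± 0.15, adjusted p = 0.65). The arrays of both these lines overlapped. The Hep3B-labelled change was below that in HepG2 by -0.77 ± 0.18 (adjusted p = 0.0042) and below that in Huh7 by -0.69 ± 0.20 (adjusted p = 0.019). ACAT2, the cytosolic thiolase, and PMVK, the next kinase after MVK, did not pass in any line. Their log2 fold changes lay between -0.53 and 0.29. In Huh7, ACAT2 was above background on 1 of 3 arrays of each group, so a change there could hardly be measured. PMVK in Huh7 was -0.85 without COP1 siRNA replicate 1 (adjusted p = 0.0012) and -0.10 without replicate 3 (adjusted p = 0.66).

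Of the 9 measured genes that turn squalene into cholesterol, LSS fell in each line, SC5D and MSMO1 rose in Huh7, and 0 others changed. That is 33.3% of the 9 in Huh7, and 11.1% in HepG2 and in the Hep3B-labelled cells. Over all genes, 32.2%, 18.6% and 16.3% changed in these lines. LSS (chromosome 21, 46188446 to 46228774) had 1148, 861 and 708 in Huh7 COP1 siRNA cells against 1686, 1395 and 1706 in control cells. In HepG2 it had 1463, 1898, 1874 and 1590 with COP1 siRNA against 3155, 2278, 2296 and 2481 with control siRNA. Hep3B-labelled cells gave LSS levels of 383, 456, 560 and 398 with COP1 siRNA against 692, 856, 667 and 617 with control siRNA. The groups were separate in all 3 lines, with every COP1 siRNA array below every control array of its line. In a single line, separate groups were seen for 33.5% of all genes in Huh7, 25.0% in HepG2 and 28.3% in the Hep3B-labelled cells, in either direction.

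In Huh7, LSS averaged 906 ± 223 with COP1 siRNA and 1596 ± 174 with control siRNA (SD, n = 3 each), a log2 fold change of -0.79 ± 0.17 (SE, adjusted p = 0.00065). In HepG2 the means were 1707 ± 214 with COP1 siRNA and 2552 ± 412 with control siRNA (SD, n = 4 each), a log2 fold change of -0.56 ± 0.14 (adjusted p = 0.0067). Means in the Hep3B-labelled cells were 449 ± 80.5 with COP1 siRNA and 708 ± 104 with control siRNA (SD, n = 4 each), a log2 fold change of -0.58 ± 0.14 (adjusted p = 0.0056). The F test of a difference in LSS change between the 3 lines did not pass (adjusted p = 0.64). The call held without each array in turn, with an adjusted p of at most 0.0051 in Huh7, 0.04 in HepG2 and 0.032 in the Hep3B-labelled cells.

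These LSS values come from its brightest probe, ILMN_1715024. The 2 dimmer probes gave smaller falls on the log2 scale, where the added 50 understates changes of dim probes. Their falls were smaller in deposited intensity too, where no offset enters. In Huh7, mean deposited intensity with COP1 siRNA was 56.76% of control for the brightest, 60.55% for ILMN_1687863 and 60.66% for ILMN_1658271. In the same order it was 66.86%, 93.28% and 73.19% in HepG2, and 63.46%, 67.91% and 84.37% in the Hep3B-labelled cells. In Huh7, ILMN_1687863 was lower by a log2 value of -0.41 ± 0.14 (adjusted p = 0.029) and ILMN_1658271 by -0.36 ± 0.15 (adjusted p = 0.060). Neither passed in HepG2, at -0.05 ± 0.12 and -0.28 ± 0.13 (adjusted p = 0.84 and 0.13), or in the Hep3B-labelled cells, at -0.12 ± 0.12 and -0.12 ± 0.13 (adjusted p = 0.64 for both). In the Hep3B-labelled cells ILMN_1687863 was above background on 1 of 4 COP1 siRNA arrays and 3 of 4 control arrays. With the mean of the 3 probes in place of the brightest, the Hep3B-labelled fall was -0.27 with an adjusted p of 0.059, which ends the call there.

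SC5D, the sterol desaturase, had 1114, 1558 and 3215 in Huh7 COP1 siRNA cells against 1391, 977 and 903 in control cells. Its arrays overlapped, and the rise (0.69 ± 0.23, adjusted p = 0.022) rested on replicate 3: without it the log2 fold change was 0.28 (adjusted p = 0.23). The call was also lost without control siRNA replicate 2 (adjusted p = 0.076) or replicate 3 (0.10). MSMO1, the sterol methyl oxidase, had 2173, 2571 and 4386 with COP1 siRNA against 1901, 2171 and 1853 with control siRNA, a log2 fold change of 0.54 ± 0.19 (adjusted p = 0.028). Without replicate 3 it was 0.25 (adjusted p = 0.25), and the call was lost without control siRNA replicate 1 (0.073) or replicate 3 (0.09) too. A second MSMO1 probe, ILMN_1689842, gave 0.65 ± 0.29 in Huh7 (adjusted p = 0.089), and the remaining tested probe, ILMN_2402499, was above background on 0 of 6 Huh7 arrays. With the mean of the 3 probes the MSMO1 value was 0.35 (adjusted p = 0.16).

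The other 6 genes of this stretch, SQLE, CYP51A1, TM7SF2, NSDHL, EBP and DHCR7, did not pass in any line. TM7SF2, a sterol reductase, came closest in Huh7, with 81.6, 71.4 and 72.8 after COP1 siRNA and 109, 118 and 125 after control siRNA. The arrays did not overlap, at a log2 fold change of -0.36 ± 0.14 (adjusted p = 0.051). TM7SF2 passed in Huh7 under 5 of 15 alternatives, among them an offset of 16 (-0.45, adjusted p = 0.04). With Huh7 fitted alone its adjusted p was 0.16. In the Hep3B-labelled cells it passed under 2 of 17 alternatives. DHCR7, the reductase that completes cholesterol, had log2 fold changes of 0.24 ± 0.11 in HepG2 and -0.25 ± 0.11 in the Hep3B-labelled cells (adjusted p = 0.12 and 0.11). The change in the Hep3B-labelled cells was below the HepG2 change by -0.49 ± 0.15 (adjusted p = 0.021).

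**Figure D3:**
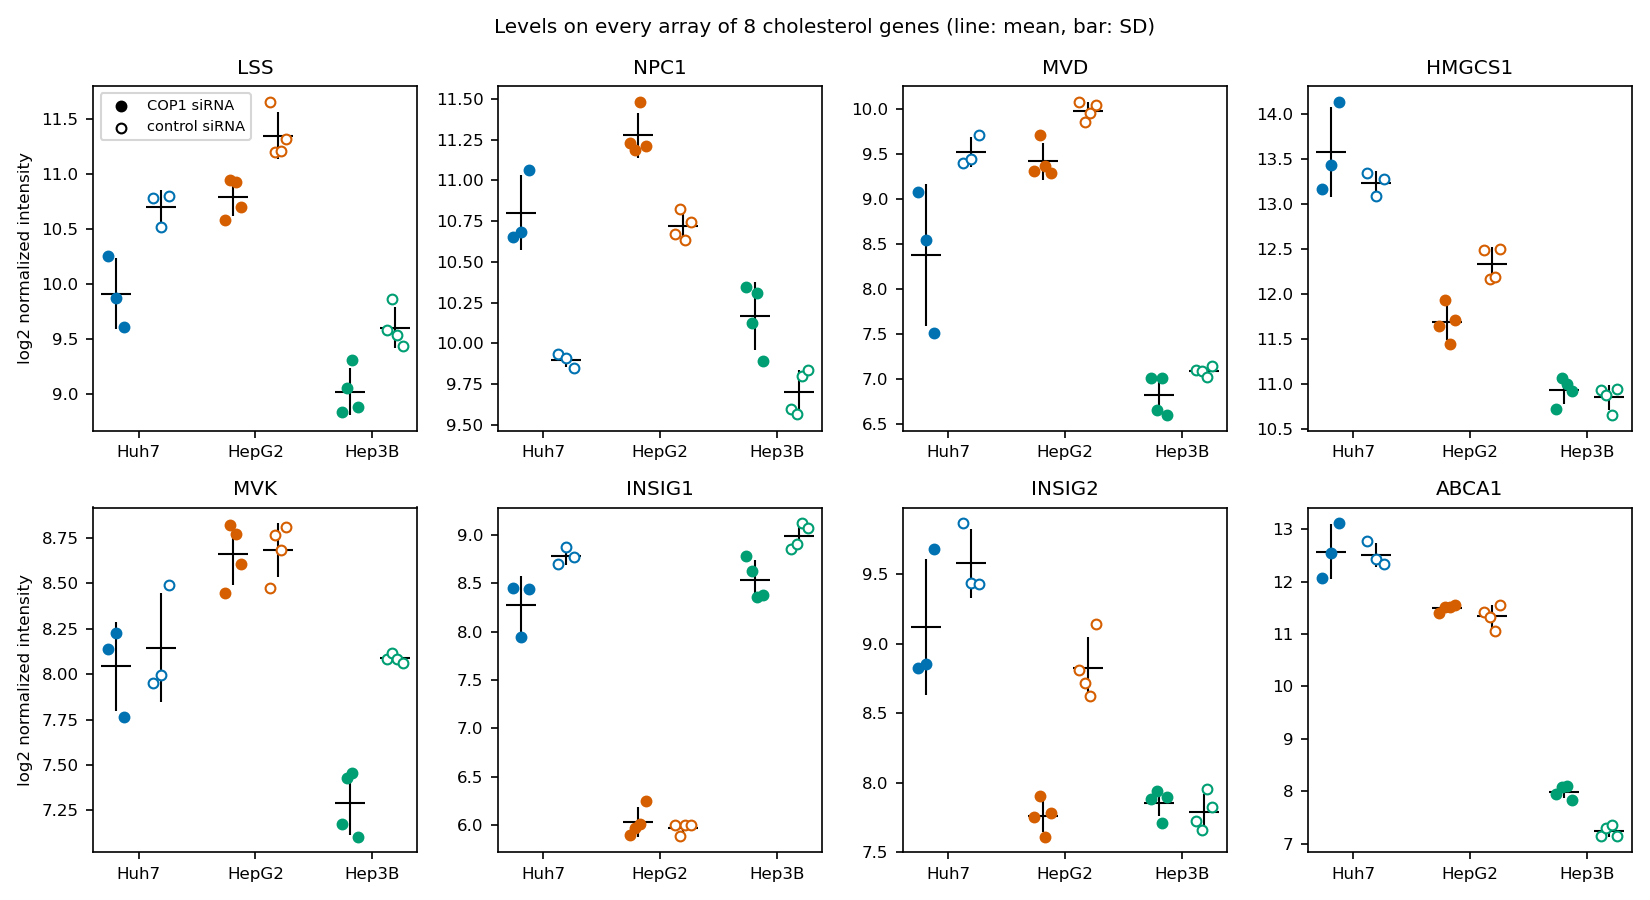
Levels of 8 cholesterol genes on every array. The y axis is the log2 normalized intensity, with filled points for COP1 siRNA left of open points for control siRNA in each line, lines for group means and bars for SD. LSS is lower and NPC1 higher in all COP1 siRNA groups, HMGCS1 is lower in HepG2, INSIG2 in HepG2, and MVK in the Hep3B-labelled cells, where ABCA1 is higher.

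Of the 5 measured SREBP regulators, SREBF1, SCAP, INSIG1 and INSIG2 fell in Huh7 and 0 rose, where 15.2% of all genes fell. With Huh7 fitted alone, where 9.39% of all genes changed, 0 of these 4 calls passed (adjusted p between 0.087 and 0.3). In HepG2 1 of the 5 fell, INSIG2, and in the Hep3B-labelled cells 1 fell, INSIG1. In Huh7, 4 of 10 hepatocyte markers fell with COP1 siRNA too, with log2 fold changes of -2.25 for FOXA3, -1.46 for RBP4, -0.80 for AHSG and -0.75 for APOA2, while 0 of 10 changed in HepG2 and in the Hep3B-labelled cells. At an unadjusted p under 0.05 in limma, 1 was higher and 1 lower in HepG2 and 0 differed in the Hep3B-labelled cells. In those cells 7 of the 10 markers were above background on no array, FOXA3, RBP4 and APOA2 among them. A fall of these 7 could not have been seen there. The summed intensity of the 10 markers was 85413 to 88923 in Huh7 COP1 siRNA cells and 100690 to 107250 in Huh7 control cells. In HepG2 the sum was 117350 to 121990 with COP1 siRNA and 123960 to 129210 with control siRNA. The Hep3B-labelled cells had 181.8 to 259.21 with COP1 siRNA and 136.18 to 254.09 with control siRNA. Their part in the Huh7 falls was not tested.

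SREBF1, which encodes SREBP-1 (chromosome 17, 17811334 to 17836986), had 592, 627 and 783 in Huh7 COP1 siRNA cells against 916, 944 and 980 in control cells. The arrays were separate, and the log2 fold change was -0.47 ± 0.13 (adjusted p = 0.0075). It stayed below 0.05 without each Huh7 array in turn but was 0.11 with Huh7 fitted alone. A second probe, ILMN_2328986, gave -0.32 ± 0.15 (adjusted p = 0.10). In HepG2, SREBF1 had 1087, 1119, 1191 and 1241 with COP1 siRNA against 971, 1104, 1157 and 1291 with control siRNA (0.04 ± 0.11, adjusted p = 0.87). The Hep3B-labelled cells had 277, 203, 174 and 215 with COP1 siRNA against 241, 256, 209 and 231 with control siRNA (-0.09 ± 0.11, adjusted p = 0.70). Arrays overlapped in both.

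SREBF2, which encodes the SREBP most devoted to cholesterol genes, was dim on these arrays. It had 31.4, 28.1 and 20.3 in Huh7 COP1 siRNA cells and 23.6, 47.6 and 34 in control cells. HepG2 had 35.7, 68, 108 and 48.3 with COP1 siRNA against 37, 74.4, 41.3 and 50.5 with control siRNA, and the Hep3B-labelled cells had 46.6, 67.9, 64.3 and 66 with COP1 siRNA against 76.6, 66.6, 72.4 and 51.4 with control siRNA. The arrays overlapped in all 3 lines. The 95% intervals of its log2 fold change ran between -0.42 and 0.20 in Huh7. They ran between -0.13 and 0.41 in HepG2 and between -0.32 and 0.21 in the Hep3B-labelled cells.

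INSIG1, itself a target of the SREBPs (chromosome 7, 155297878 to 155310235), had 276, 171 and 273 in Huh7 COP1 siRNA cells against 340, 394 and 362 in control cells. The Hep3B-labelled cells had 364, 321, 253 and 258 with COP1 siRNA against 386, 403, 482 and 463 with control siRNA. In both lines every COP1 siRNA array was below every control. The log2 fold change was -0.50 ± 0.14 in Huh7 (adjusted p = 0.008), and -0.45 ± 0.12 in the Hep3B-labelled cells (adjusted p = 0.012). The first was lost without Huh7 COP1 siRNA replicate 2 (adjusted p = 0.074) and the second without Hep3B COP1 siRNA replicate 3 (adjusted p = 0.051). In HepG2 the INSIG1 probe was not above background on any of the 8 arrays, at -15.5, -12.3, -10.6 and 0.98 after COP1 siRNA and -11.2, -15.8, -11.1 and -11.2 after control siRNA, so no change could be measured there.

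INSIG2 (chromosome 2, 118088471 to 118110997) encodes the INSIG protein that the SREBPs do not induce. In HepG2 it had 141, 165, 120 and 145 after COP1 siRNA and 374, 347, 320 and 490 after control siRNA. Every COP1 siRNA array was below every control array, by a wide margin. This was the largest fall of the 28 genes in HepG2, at -1.06 ± 0.15 on the log2 scale (adjusted p = 1.3e-05), and it held without each array in turn.

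In Huh7, INSIG2 had 378, 389 and 746 with COP1 siRNA against 859, 618 and 615 with control siRNA. COP1 siRNA replicates 1 and 2 lay below all controls and replicate 3 among them. The log2 fold change was -0.46 ± 0.18 (adjusted p = 0.049), and it was -0.74 (adjusted p = 0.00024) without replicate 3. Leaving out any 1 of the other 5 Huh7 arrays ended the call, with an adjusted p of up to 0.23. Hep3B-labelled cells gave 160, 170, 135 and 163 with COP1 siRNA against 136, 127, 173 and 151 with control siRNA, which overlapped (0.07 ± 0.15, adjusted p = 0.85). The change there was above that in HepG2 by 1.13 ± 0.22 (adjusted p = 0.00065).

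SCAP, the sterol-sensing escort of the SREBPs, had 782, 856 and 721 in Huh7 COP1 siRNA cells against 1086, 1053 and 1271 in control cells, with no overlap. Its log2 fold change was -0.49 ± 0.13 (adjusted p = 0.0054) in Huh7, and it was 0.087 in adjusted p when Huh7 was fitted alone. In HepG2 and the Hep3B-labelled cells SCAP had log2 fold changes of -0.00 ± 0.11 and -0.15 ± 0.11 (adjusted p = 0.99 and 0.46).

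Of 5 measured genes that free cholesterol in the lysosome or store it as ester, 2 rose in Huh7 (NPC1 and LIPA), 2 in HepG2 (NPC1 and SOAT2) and 1 in the Hep3B-labelled cells (NPC1). By limma 0 fell in any line, at an adjusted or an unadjusted p under 0.05. Over all genes, 17.0% rose in Huh7, 9.06% in HepG2 and 8.44% in the Hep3B-labelled cells by the adjusted test. NPC1 (chromosome 18, 23506184 to 23586506) had 1537, 1570 and 2068 in Huh7 COP1 siRNA cells against 902, 886 and 847 in control cells. In HepG2 it had 2322, 2258, 2787 and 2300 with COP1 siRNA against 1557, 1736, 1517 and 1642 with control siRNA. Hep3B-labelled cells had 1225, 1041, 1195 and 873 with COP1 siRNA against 698, 681, 815 and 841 with control siRNA. Every COP1 siRNA array exceeded every control array of its line, though in the Hep3B-labelled cells replicate 4 did so narrowly.

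In Huh7, NPC1 averaged 1725 ± 297 with COP1 siRNA and 878 ± 28.1 with control siRNA (SD, n = 3 each), a log2 fold change of 0.90 ± 0.14 (SE, adjusted p = 1.3e-05). In HepG2 it averaged 2417 ± 248 with COP1 siRNA and 1613 ± 97.2 with control siRNA (SD, n = 4 each), a log2 fold change of 0.56 ± 0.12 (adjusted p = 0.0011). Averages in the Hep3B-labelled cells were 1083 ± 162 with COP1 siRNA and 759 ± 80.7 with control siRNA (SD, n = 4 each), a log2 fold change of 0.47 ± 0.12 (adjusted p = 0.0062). Without Huh7 COP1 siRNA replicate 3, the Huh7 value was 0.77 (adjusted p = 4.6e-05). The F test between lines did not pass (adjusted p = 0.13). NPC1 was measured by 1 probe, so probes could not be compared.

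LIPA, the lysosomal lipase that frees cholesterol from its esters, had 1814, 1720 and 5132 in Huh7 COP1 siRNA cells against 1367, 1549 and 1092 in control cells. The groups did not overlap, but replicate 3 was far above the other 2. Its log2 fold change of 0.90 ± 0.26 (adjusted p = 0.009) was 0.40 without that array (adjusted p = 0.086), and the call was also lost without control siRNA replicate 3 (adjusted p = 0.055). In HepG2 and the Hep3B-labelled cells LIPA had log2 fold changes of 0.34 ± 0.22 and 0.13 ± 0.22 (adjusted p = 0.33 and 0.80).

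SOAT2, the liver and gut enzyme that esterifies cholesterol, had 77.1, 136, 63 and 77.3 in HepG2 COP1 siRNA cells against 47.7, 42.6, 18.6 and 40.6 in control cells, near the background limit of 21.84. The log2 fold change was 0.53 ± 0.16 (adjusted p = 0.022), and it did not pass without COP1 siRNA replicate 2 (adjusted p = 0.11) or control siRNA replicate 3 (0.085). NPC2, which hands cholesterol to NPC1, and SOAT1, the widespread esterifying enzyme, did not pass in any line. SOAT1 had 288, 258, 274 and 217 in the Hep3B-labelled cells after COP1 siRNA and 145, 164, 212 and 205 after control siRNA, which did not overlap (0.39 ± 0.17, adjusted p = 0.13). It passed with those cells fitted alone (adjusted p = 0.0096).

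Of the 3 measured genes of efflux and its control by LXR, NR1H3 fell in Huh7 and ABCA1 rose in the Hep3B-labelled cells. In HepG2 0 changed in limma, at an adjusted or an unadjusted p under 0.05. By the adjusted test, 32.2% of all genes changed in Huh7, 18.6% in HepG2 and 16.3% in the Hep3B-labelled cells. ABCA1, the exporter that loads cholesterol onto apolipoprotein A-I (chromosome 9, 104781006 to 104928155), had 172, 196, 198 and 152 in the Hep3B-labelled cells after COP1 siRNA and 67.1, 83.3, 89.6 and 66.4 after control siRNA. The groups were well separated, and the log2 fold change was 0.75 ± 0.15 (adjusted p = 0.0012). In Huh7 it had 4218, 5865 and 8782 with COP1 siRNA against 6894, 5414 and 5090 with control siRNA (0.06 ± 0.18, adjusted p = 0.82), with COP1 siRNA arrays on both sides of the controls. In HepG2 it had 2644, 2834, 2832 and 2936 with COP1 siRNA against 2668, 2470, 2048 and 2934 with control siRNA (0.16 ± 0.15, adjusted p = 0.55). The F test of a difference between lines passed (adjusted p = 0.037), while the single differences of the Hep3B-labelled change from Huh7 (0.68 ± 0.24) and from HepG2 (0.59 ± 0.22) had adjusted p of 0.051 and 0.059.

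NR1H3, the LXR alpha receptor, had 310, 389 and 175 in Huh7 COP1 siRNA cells against 472, 482 and 506 in control cells. All COP1 siRNA arrays were below the controls, with replicate 3 the lowest. The log2 fold change was -0.66 ± 0.17 (adjusted p = 0.0041), and -0.41 without replicate 3 (adjusted p = 0.036). The HepG2 change was above that in Huh7 by 0.78 ± 0.23 (adjusted p = 0.013).

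ABCG1, an exporter to high-density lipoprotein, gave a different answer by probe. Its brightest probe on average, ILMN_1658176, was near background in Huh7 and had a log2 fold change of 0.02 ± 0.15 there (adjusted p = 0.94). ILMN_2329927 averaged 258.7 in Huh7 COP1 siRNA cells and 519.5 in control cells, a log2 fold change of -0.83 ± 0.12 (adjusted p = 7.2e-06 over all probes). That probe was not above background in HepG2 or Hep3B-labelled control cells, each at least 6.124-fold lower than Huh7 control cells. The other tested probe, ILMN_1794782, had -0.19 ± 0.17 in Huh7 (adjusted p = 0.45), and 2 further annotated probes, ILMN_1695968 and ILMN_2262362, were too dim to be tested. Whether the probes read different transcripts of ABCG1 was not tested.

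**Figure D4:**
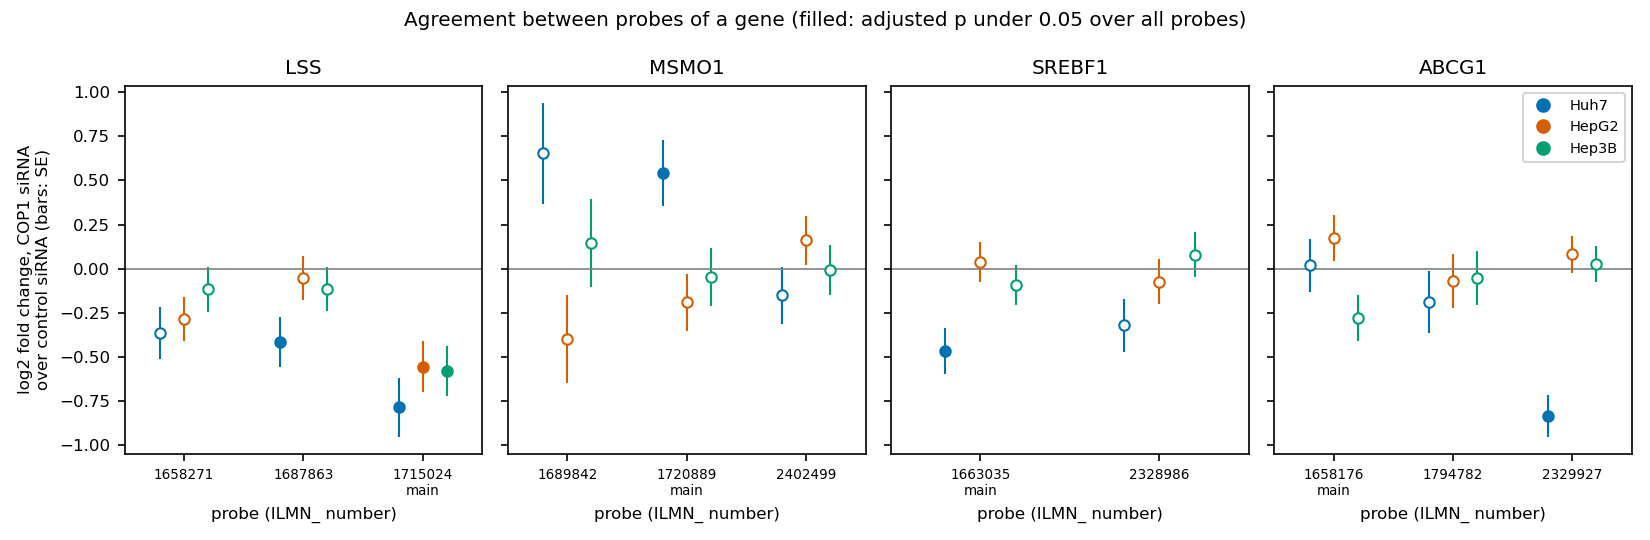
Change of each tested probe of the 4 cholesterol genes with more than 1 probe. The y axis is the log2 fold change of COP1 siRNA over control siRNA, bars are standard errors, filled points have an adjusted p under 0.05 over all probes, and "main" is the probe that stands for the gene. The main LSS probe is filled in all 3 lines, ILMN_1687863 in Huh7 alone and ILMN_1658271 in 0 lines, while ABCG1 has 1 probe at -0.83 in Huh7 beside a main probe at 0.02.

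An F test asked for each gene whether its COP1 siRNA change differed between the 3 lines. It passed for 9 of the 28 genes, where 34.1% of all genes tested passed. The 9 were HMGCS1, IDI1, MVK, DHCR7, SC5D, INSIG1, INSIG2, ABCA1 and NR1H3. INSIG2 had the smallest adjusted p (0.0011), followed by MVK (0.0037) and HMGCS1 (0.0038). The INSIG1 result includes HepG2, where the probe was at background. Between the lines that measured INSIG1, the change in the Hep3B-labelled cells differed from that in Huh7 by 0.05 ± 0.19 (adjusted p = 0.90). Without Huh7 COP1 siRNA replicate 3, NR1H3 no longer passed (adjusted p = 0.068), and the other 8 did, with adjusted p between 6e-06 and 0.022.

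In control cells the 3 lines differed in most of these genes. Against Huh7, 15 of the 28 were higher in HepG2 and 6 lower, 75% of them, where 54.7% of all genes differed (28.2% higher and 26.5% lower). Of the 28, 8 were higher in the Hep3B-labelled cells than in Huh7 and 13 lower, 75%, where 65.0% of all genes differed (34.0% higher and 31.0% lower). Against HepG2, 3 were higher in the Hep3B-labelled cells and 20 lower, 82.1%, where 59.0% of all genes differed (30.5% higher and 28.5% lower). ABCG1 is among the higher genes in both these comparisons by its brightest probe, ILMN_1658176. That probe gave 0.81 ± 0.14 against Huh7. The other tested probes were lower there, ILMN_1794782 at -0.74 ± 0.16 (adjusted p = 0.00029 in limma) and ILMN_2329927 at background and at least 6.124-fold lower. Against HepG2 those probes did not pass (adjusted p = 0.15 and 0.40). The median log2 difference of the 28 was 0.47 for HepG2 over Huh7, -0.29 for Hep3B-labelled over Huh7 and -1.27 for Hep3B-labelled over HepG2, beside 0.03, 0.04 and 0.03 over all genes.

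ABCA1 showed the widest range. It averaged 76.6 ± 11.7 in Hep3B-labelled control cells and 5799 ± 961 in Huh7 control cells, a log2 difference of -5.27 ± 0.17 (adjusted p = 5.9e-20). HepG2, at 2530 ± 373, was below Huh7 by -1.17 ± 0.17 (adjusted p = 1.1e-06), and the Hep3B-labelled cells were below HepG2 by -4.09 ± 0.15 (adjusted p = 1.9e-18). The rise of ABCA1 after COP1 siRNA described above was in the cells where its control level was lowest.

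TM7SF2 averaged 1990 ± 458 in HepG2 control cells against 118 ± 7.72 in Huh7, a log2 difference of 3.40 ± 0.13 (adjusted p = 7.5e-18). The Hep3B-labelled cells, at 64.2 ± 18.3, were below Huh7 by -0.48 ± 0.13 (adjusted p = 0.0025). LBR, which catalyses the same reductase step, belongs to the wider pathway genes below. INSIG1 ran the other way: being at background in HepG2, it was at least 4.536-fold lower there than in Huh7 (365 ± 27.2) and at least 5.228-fold higher in the Hep3B-labelled cells (434 ± 46) than in HepG2.

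Synthesis genes low in the Hep3B-labelled cells included EBP, MVD, DHCR7, HMGCS1 and SC5D. EBP averaged 676 ± 68 there against 5406 ± 490 in Huh7 (-2.87 ± 0.21), and HepG2 lay between them at 2115 ± 178. MVD averaged 61 ± 4.39 against 663 ± 89.1 in Huh7 (-2.43 ± 0.21), with HepG2 at 937 ± 68.7, which did not differ from Huh7 beyond the threshold (0.46 ± 0.21, adjusted p = 0.068). DHCR7 averaged 970 ± 47.1 against 4421 ± 475 in Huh7 (-2.10 ± 0.11), and HMGCS1 1785 ± 168 against 9613 ± 866 (-2.38). All 4 had an adjusted p below 0.05 in limma. Other synthesis genes were higher in the Hep3B-labelled cells than in Huh7, among them NSDHL (0.97 ± 0.13), CYP51A1 (0.97 ± 0.15) and IDI1 (0.46 ± 0.15).

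Regulators split as well. SREBF1 averaged 234 ± 19.7 in the Hep3B-labelled cells against 947 ± 32.1 in Huh7 (-1.72 ± 0.12) and 1131 ± 132 in HepG2 (-1.96 ± 0.11), and its second probe gave -1.63 ± 0.14 and -1.57 ± 0.13. NR1H3 averaged 73.5 ± 15.8 in the Hep3B-labelled cells against 487 ± 17.6 in Huh7 (-1.92 ± 0.16). INSIG2 averaged 147 ± 20 in the Hep3B-labelled cells, 383 ± 74.7 in HepG2 and 697 ± 140 in Huh7, and each step in that order passed the test. SREBF2 was not lower in the Hep3B-labelled cells, with 66.8 ± 11 against 35.1 ± 12 in Huh7 (0.37 ± 0.14, adjusted p = 0.025).

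Some genes were highest in HepG2. IDI1 averaged 1001 ± 83 there against 237 ± 44.7 in Huh7 (1.79 ± 0.15). ACAT2 averaged 262 ± 37 in HepG2, while in Huh7 control cells it was above background on 1 of 3 arrays and averaged 17.1 ± 15.3, below the limit of 21.84, so the size of that difference is not given. MSMO1 averaged 6197 ± 531 in HepG2 against 1975 ± 172 in Huh7 (1.61 ± 0.18), and the Hep3B-labelled cells, at 1896 ± 170, did not differ from Huh7 beyond the spread (-0.06 ± 0.18). LIPA averaged 3611 ± 458 in HepG2 against 1336 ± 230 in Huh7 (1.39 ± 0.24), and NPC1 1613 ± 97.2 against 878 ± 28.1 (0.82 ± 0.13). For LSS 1 probe differed from the other 2 on this contrast. The brightest gave a log2 difference of 0.65 ± 0.15 for HepG2 over Huh7 (adjusted p = 0.00089), and ILMN_1658271 gave 0.50 ± 0.14 (adjusted p = 0.0031). ILMN_1687863 gave -0.43 ± 0.13 (adjusted p = 0.0076).

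**Figure D5:**
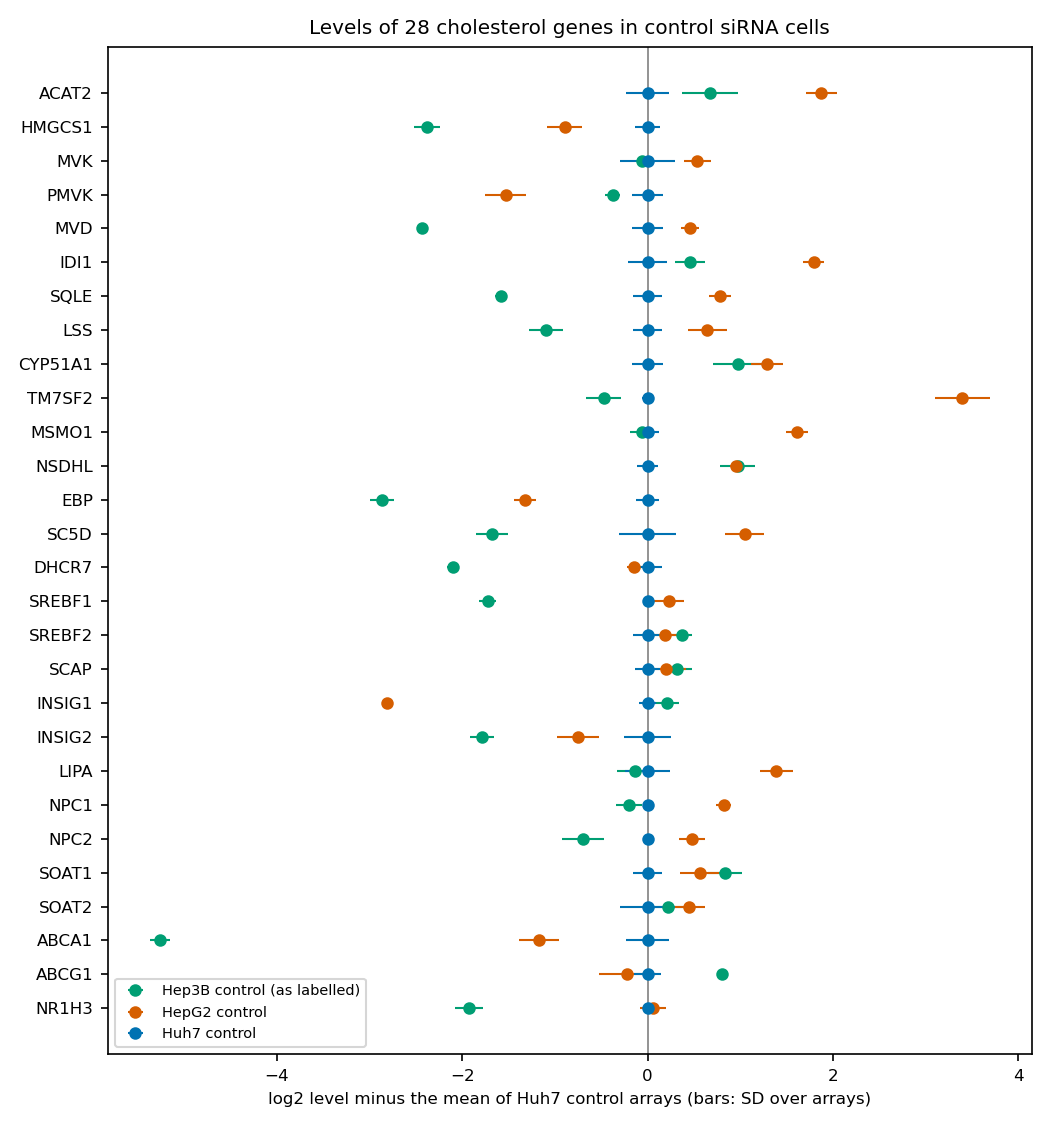
Levels of the 28 cholesterol genes in control siRNA cells of the 3 lines. The x axis is the log2 level minus the mean of the Huh7 control arrays, and bars are SDs over 3 Huh7 arrays or 4 arrays of the other lines. ABCA1 lies at -5.27 in the Hep3B-labelled cells, TM7SF2 at 3.40 in HepG2, and INSIG1 in HepG2 is at background. ABCG1 is drawn by its brightest probe alone, and its other tested probes are lower, not higher, in the Hep3B-labelled cells than in Huh7.

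Other genes of the pathway were followed as 3 lists. Of 8 measured genes (of 11 listed) that process SREBPs or degrade sterol enzymes, 2 fell in each line, while 1 rose in HepG2 and 0 in the other lines. That is 25% of the 8 in Huh7, 37.5% in HepG2 and 25% in the Hep3B-labelled cells, where 32.2%, 18.6% and 16.3% of all genes changed. SPRING1, which helps activate the protease that cleaves SREBPs, fell in all 3 lines. In Huh7 it averaged 171.7 with COP1 siRNA and 272.0 with control siRNA (log2 fold change -0.52 ± 0.15, adjusted p = 0.0095), 318.6 with COP1 siRNA and 923.3 with control siRNA in HepG2 (-1.36 ± 0.13, adjusted p = 2e-08) and 110.7 with COP1 siRNA and 305.6 with control siRNA in the Hep3B-labelled cells (-1.04 ± 0.13, adjusted p = 2.6e-06). ERLIN2, an endoplasmic reticulum membrane protein that binds cholesterol and the SCAP complex, fell in HepG2 (log2 fold change -1.15) and in the Hep3B-labelled cells (-0.82). SYVN1, an endoplasmic reticulum ubiquitin ligase, fell in Huh7 by 0.42, and ERLIN1, the partner of ERLIN2, had a rise of 0.33 in HepG2.

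In the isoprenoid branch, which draws on mevalonate products for coenzyme Q, dolichol and protein prenylation, 2 of 10 measured genes (of 11 listed) rose in Huh7, 2 in HepG2 and 3 in the Hep3B-labelled cells. Over all genes, 17.0% rose in Huh7, 9.06% in HepG2 and 8.44% in the Hep3B-labelled cells. By the adjusted limma test 0 of the 10 fell, and at an unadjusted p under 0.05, 1 was lower in HepG2 and 0 in the other lines. COQ2, of coenzyme Q synthesis, rose in Huh7 by 0.48 ± 0.13 and in HepG2 by 0.45 ± 0.11 on the log2 scale, and PDSS1, which makes the coenzyme Q tail, by 0.38 ± 0.12 in Huh7. DHDDS, of dolichol synthesis, rose by 0.78 ± 0.13 in HepG2. In the Hep3B-labelled cells RABGGTB rose by 0.91 ± 0.13, PDSS2 by 0.47 ± 0.11 and PGGT1B by 0.54 ± 0.15, RABGGTB and PGGT1B being subunits of prenyl transferases.

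Of 25 other sterol genes measured (of 31 listed), the numbers that rose were 5 in Huh7, 4 in HepG2 and 3 in the Hep3B-labelled cells, and the numbers that fell were 3, 2 and 3. These are 32%, 24% and 24% of the 25, where 32.2%, 18.6% and 16.3% of all genes changed. LBR, a nuclear envelope protein with sterol reductase activity, fell in all 3 lines. In Huh7 it averaged 283.4 with COP1 siRNA and 531.1 with control siRNA (log2 fold change -0.80 ± 0.15, adjusted p = 2.8e-04), 63.0 with COP1 siRNA and 225.0 with control siRNA in HepG2 (-1.12 ± 0.13, adjusted p = 7.3e-07) and 166.8 with COP1 siRNA and 392.6 with control siRNA in the Hep3B-labelled cells (-0.95 ± 0.13, adjusted p = 1.4e-05). In Huh7, ARV1, which takes part in sterol transport from the endoplasmic reticulum, rose by 0.92 ± 0.12, and MYLIP, the ligase that sends lipoprotein receptors to degradation, by 0.98 ± 0.16. In HepG2, the sterol and lipid carriers OSBPL9 and OSBPL10 had log2 fold changes of -1.30 ± 0.18 and 0.60 ± 0.11, both past the threshold. In the Hep3B-labelled cells NCEH1, a cholesteryl ester hydrolase, rose by 0.68 ± 0.15 and OSBPL11 by 0.56 ± 0.14.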

How the data were processed

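RNA was measured on 22 Illumina HumanRef-8 v3 arrays in 6 groups, named from the labels. The authors deposited linear bead intensity per probe, made with GenomeStudio 2009.1, per the submitters' processing notes. Since 23.7% of the values were below 0, background had been subtracted, and array medians of 24.31 to 24.5 show a shared scale. Exact values recur on different arrays, such as 1898.123 for HMGCS1 on a Hep3B control array and for LSS on a HepG2 COP1 siRNA array. The values had thus been normalized between arrays before deposit, and the steps below were run on top of that. Each array had 12618 to 12642 probes past the background limit given below, so that number was nearly fixed per array. How the authors subtracted background or normalized is not given in the sources. A second deposited table, with detection p-values, has 44 per-sample columns whose names match no sample label, and these were not used.

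From the deposited intensities, normexp correction (offset 50), log2 and quantile normalization were run with limma 3.58.1 under R 4.3.3. A probe was above background past an intensity of 21.84, the 0.98 quantile of the sizes of values below 0, a limit chosen after the tables had been read because no detection p-value could be assigned. Probes above it on at least 3 arrays were kept (16563 of 24526), and the brightest kept probe stood for its gene. Gene symbols came from the array's annotation (21834 probes with 1, 2692 with none, 0 with several), and 21813 probes were matched to RefSeq (GRCh38.p14) by gene identifier. Gene coordinates are RefSeq's. "At least" folds compare the brighter group's mean with the dimmest signal above background on the dim group's arrays.

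A limma model of 6 group means took in all 22 arrays (16 residual degrees of freedom, prior 9.41), with two-sided tests and Benjamini-Hochberg adjustment over 13870 genes in each contrast. Probe values were adjusted over all kept probes. The method was tested on simulated data. Arrays were compared before averaging, and 0 pairs held identical values. Same-numbered arrays of a line did not deviate together (correlations between -0.282 and 0.103), so the numbers were not taken to pair arrays. The number of arrays limits the precision.

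Values on every array are given for the 4 largest changes past the threshold per line, for SREBF1, SREBF2, INSIG1 and INSIG2, and for genes changed the same way in all lines; values of further members were added after they had been seen. Of each wider pathway list, up to 3 members per line are named, by smallest adjusted p. The members and lists were chosen with earlier results of these data known. Alternatives changed the spread estimate, array weights, background correction, offset, normalization, filter, probe rule, replicate block and the arrays used.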

Additional observations from a re-analysis of the deposited data

Results flagged for a closer look

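In 112 groups of 4 arrays (28 genes in 4 groups), the distance of the farthest array was set against the group's range, a check that chance passes in about 5% of groups, and 5 arrays passed. NSDHL was lowest on Hep3B COP1 siRNA replicate 1 at 1479, against 1897 to 1974 on the other 3 arrays, a gap of 0.86 of the range. SREBF2 was lowest on the same array, at 46.6 (0.837 of the range). NPC1 was highest on HepG2 COP1 siRNA replicate 3, at 2787 beside 2258 to 2322 on the others (0.867). EBP was lowest on HepG2 control siRNA replicate 4, at 1852 beside 2170 to 2239 (0.835). INSIG1 was lowest on HepG2 control siRNA replicate 2 (0.96), where the probe was below background on every array.

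The COP1 siRNA change differed between the 3 lines by the F test for HMGCS1 (adjusted p = 0.0038), IDI1 (0.011), MVK (0.0037), DHCR7 (0.033), SC5D (0.014), INSIG1 (0.026), INSIG2 (0.0011), ABCA1 (0.037) and NR1H3 (0.026). INSIG1 was at background in HepG2, and its changes in Huh7 and the Hep3B-labelled cells differed by 0.05 ± 0.19 (adjusted p = 0.90). HMGCS1 fell in HepG2 by 0.65 on the log2 scale, where its value in Huh7 was 0.34. INSIG2 fell in HepG2 by 1.06 and had 0.07 in the Hep3B-labelled cells. MVK fell in the Hep3B-labelled cells by 0.80, where its value in HepG2 was -0.02.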

How the results depend on the processing

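Of 23 calls of a gene in a line, 9 passed under every alternative run, LSS in Huh7 and HepG2, NPC1 in all 3 lines, HMGCS1 and INSIG2 in HepG2, and MVK and ABCA1 in the Hep3B-labelled cells. The other 14 were lost under at least 1, 9 of them with the line fitted alone, and 0 changed sign. Fitted alone, Huh7 had 1 gene higher and 1 lower, and the Hep3B-labelled cells had 4 higher and 6 lower, where 9.39% and 28.3% of all genes changed. Across lines 6 calls were gained that way. With array quality weights, whose estimate stopped before convergence, Huh7 had 1 higher, and the Hep3B-labelled cells had 4 higher and 8 lower. HepG2 had 3 lower without further background correction, and 1 higher and 3 lower with an offset of 16. The first of these settings also left out the offset and the quantile normalization, and raised values below 16 to 16. With the replicate number as a block, Huh7 had 2 higher, HepG2 3 lower, and 4 genes passed the F test between lines. Leaving out 1 array at a time gave 1 to 6 higher and 6 to 8 lower in Huh7, 1 to 2 and 3 to 6 in HepG2, 2 to 4 and 2 to 4 in the Hep3B-labelled cells, and 7 to 13 genes in the F test. In control cells it gave 12 to 16 higher and 6 lower for HepG2 over Huh7, 6 to 8 and 13 to 14 for Hep3B-labelled over Huh7, and 3 to 4 and 19 to 20 for Hep3B-labelled over HepG2. ABCG1 in Huh7 turned negative, at -0.34 (adjusted p = 0.031), with the mean of its probes, since that takes in the probe at -0.83. The causes of the other shifts were not tested. Cyclic loess and both other filters moved no count by over 1.5 times. Analysis of the values before normalization and a slide block were not run, because those columns match no label.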
